A study of Mus musculus with 17 samples.

Results

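The infarct zone of the mouse heart was described here by its own RNA, 5 days after myocardial infarction (MI). The 9 libraries labelled as infarct zone were taken out of the 17 heart libraries of the series, and no comparison was made with the 8 sham libraries. Each library came from 1 male C57BL/6J wild-type mouse aged 8 to 11 weeks, in which the left anterior descending coronary artery (LAD) had been ligated permanently, with no reperfusion. All 9 mice carried the same genotype and treatment, so what follows is variation among animals of 1 group and not an effect of a condition. The tissue was the dissected infarct, frozen as a piece and lysed whole, and its border and cell content were not recorded in the labels. In such bulk RNA, fewer cells of a type and less RNA per cell cannot be told apart.

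In the first days after a permanent ligation, dead myocardium is being cleared by macrophages, fibroblasts lay down a provisional collagen matrix, and few cardiomyocytes remain inside the scar. Cardiomyocytes are recognised by sarcomere genes such as Myh6 and Actc1, activated fibroblasts by collagens and periostin (Postn), and macrophages by lysozyme (Lyz2), complement C1q and cathepsins. Counts were of 3' tags, so values were not divided by transcript length. The primers carried unique molecular identifiers, and whether reads were collapsed by them before counting was not given in the sources used here. Levels are given as a share of all counts of a library or as CPM, counts per 1000000 counts of the library, with totals adjusted by the trimmed mean of M values (TMM).

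Total counts ran from 1237675 to 4738307 per library, and replicates 5 to 8 were the shallowest. Replicate 1 stood apart from the other 8. Features of the mitochondrial genome took 19.5% of its counts against 4.22% to 6.78% in the others, 178 genes made up 50% of its counts against 558 to 694, and its scaling factor was 0.751 against 0.993 to 1.07. Every pair of libraries differed by more than sampling noise, with a chi-square of 4.498 to 15.03 per degree of freedom among replicates 2 to 9 and up to 128 with replicate 1. Values are therefore given over replicates 2 to 9 (n = 8) with replicate 1 beside them. No date, batch or operator was given in the labels, so no within-batch value could be had.

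**Figure D1:**
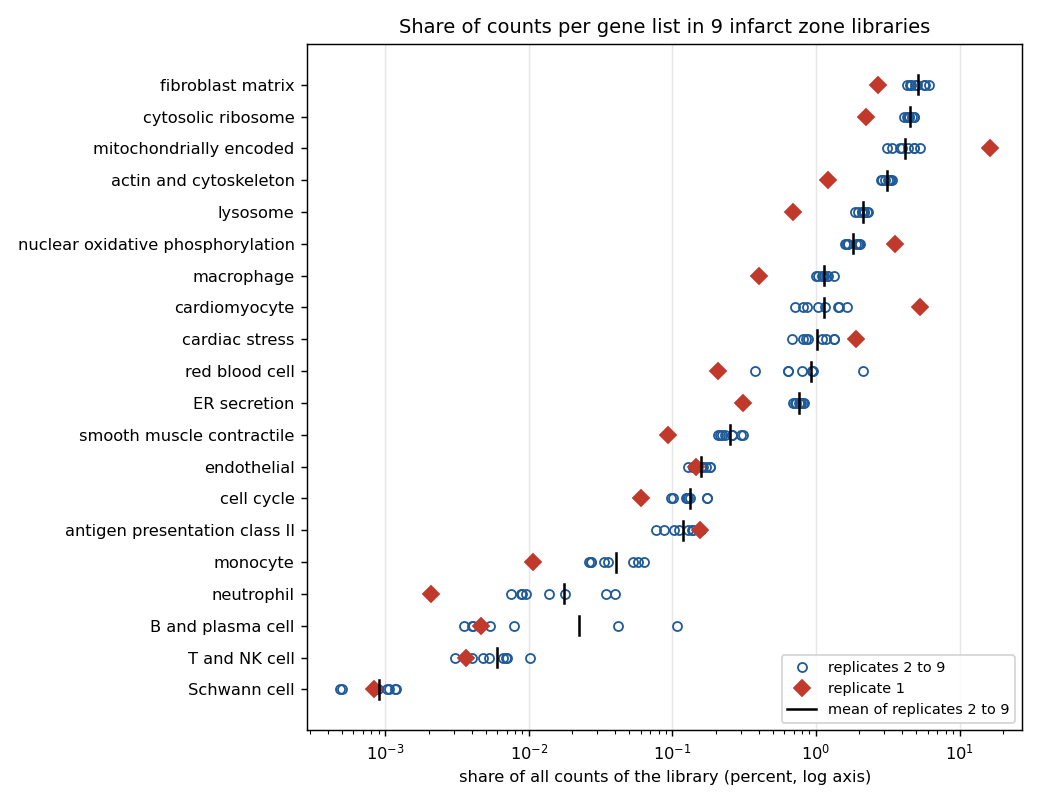
Share of all counts (percent, log axis) taken by each of 20 gene lists in each infarct zone library. Open circles are replicates 2 to 9, black bars their means, and diamonds replicate 1. Replicate 1 lies to the right of the other libraries for the mitochondrially encoded (16.3%), cardiomyocyte (5.28%), nuclear oxidative phosphorylation and cardiac stress lists, and to the left for fibroblast matrix, macrophage and lysosome.

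The transcript budget of the infarct zone held mitochondrial features, a feature annotated as a long noncoding RNA, and matrix, cytoskeletal and phagocyte genes at its top. The 20 most abundant features by mean share of the 9 libraries were Gm42418, Actb, Tmsb4x, Col1a1, Col1a2, Col3a1, Sparc, Ctsd and Apoe together with 7 mitochondrial genes and 4 nuclear copies of such genes. That ranking included replicate 1. By mean CPM without it, mt-Nd1 (rank 26) and the copy Gm10925 (22) left the first 20, and Ctsb (18) and Hbb-bs (20) entered. Actb, the cytoplasmic actin, held 1.05 ± 0.112% of the counts (SD, n = 8) and Tmsb4x, the actin-monomer binding thymosin, 0.691 ± 0.0751%. Col1a1 and Col1a2, the chains of type I collagen, held 0.863 ± 0.143% and 0.650 ± 0.128%. Col3a1 (type III collagen) held 0.587 ± 0.0768% and Sparc, a collagen-binding matricellular protein, 0.585 ± 0.0891%. The lysosomal protease Ctsd reached 0.596 ± 0.119% and the lipid carrier Apoe 0.546 ± 0.0694%.

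Gm42418, annotated as a long noncoding RNA on chromosome 17 (39846958 to 39848788, mm10), was the most abundant feature and also an unsteady one. Which RNA its counts came from was not tested. Its share was 0.600% in replicate 6, 0.760% in replicate 3 and 3.28% in replicate 4, with 1.89% in replicate 1. In CPM the highest of the 8 libraries stood 5.56-fold above the lowest for Gm42418 and 1.32-fold for Actb.

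Among the 39 gene lists, the 32 genes of the fibroblast matrix list took 5.10 ± 0.660% of the counts, the 84 cytosolic ribosomal protein genes 4.49 ± 0.251%, the 13 mitochondrially encoded protein genes 4.19 ± 0.746% and the 19 actin and cytoskeleton genes 3.14 ± 0.204%. The 23 lysosome genes took 2.12 ± 0.144% and the 23 macrophage genes 1.14 ± 0.103%. Cardiomyocyte genes, 27 in number, held 1.14 ± 0.339%, about the macrophage share but with a wider spread, from 0.715% in replicate 4 to 1.65% in replicate 5. Endothelial genes held 0.158 ± 0.0208%, cell cycle genes 0.132 ± 0.0289% and smooth muscle contractile genes 0.250 ± 0.0388%. The lists differ in length and share some genes, so these shares give the budget of the named genes and are not cell fractions.

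Near-identical copies took part of the budget of several lists. Counts of mt-Co1 (cytochrome c oxidase subunit I) and of the chromosome 1 pseudogene Gm29216 ran side by side, the ratio of Gm29216 to mt-Co1 being 0.917 to 0.950 in the 9 libraries, and mt-Co2, mt-Co3, mt-Atp6 and mt-Nd3 each had such a partner. Together with their copies, features of the mitochondrial genome held 28.3% of replicate 1 and 6.26% to 9.89% of the others. The ribosomal protein genes and 403 pseudogenes that share at least 100 bases of their 3' ends at 95% identity held 9.34 ± 0.424% together, of which the pseudogenes took 4.85%. How the authors' counting placed reads with several locations was not given in the sources used here. Single values of ribosomal protein genes, of mitochondrial genes with a copy and of other genes with a near-identical copy are therefore uncertain.

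Several lists of cell types that an infarct can hold kept few or no genes under the count minimum. The list counts required 10 or more counts of a gene in every library, which 9745 of 31647 features reached. A gene that was high in some libraries and low in another could fail it, so failing does not mean that a gene was undetected. Of the T and NK cell genes 1 of 16 passed (Ccl5, a chemokine, 17.1 ± 6.12 CPM). Of the B and plasma cell genes 1 of 10 passed (Ighm, the IgM heavy chain), of the neutrophil genes 2 of 13 (S100a8 and Csf3r), of the mast cell genes 1 of 5 (Kit, 15.6 ± 5.06 CPM), and none of the 8 adipocyte or 7 Schwann cell genes. Of the atrial genes only Nr2f1 passed (19.9 ± 5.53 CPM), 1 of 4. Of the dendritic cell genes the 1 that passed was Fscn1, the actin bundler fascin (102 ± 30.0 CPM). The mesothelial list was left with Aldh1a2, a retinoic acid synthase (28.6 ± 11.5 CPM), and the platelet list with Pf4, platelet factor 4 (221 ± 125 CPM). Of the skeletal muscle genes 1 of 9 passed, Acta1, which the stressed heart also uses.

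Cardiomyocyte transcripts were present in every infarct and varied together. Myh6, the alpha myosin heavy chain (ENSMUSG00000040752, chromosome 14, 54941921 to 54966927), ran from 343 CPM in replicate 4 to 1092 CPM in replicate 8 with a median of 747 CPM, and stood at 6052 CPM in replicate 1. Actc1, the cardiac actin and the most abundant list member, ran from 1209 to 3311 CPM (9433 in replicate 1), and Hrc, a calcium-binding protein of the sarcoplasmic reticulum and the least abundant one, from 10.4 to 39.7 CPM (249.1 in replicate 1). Ckm, the muscle creatine kinase, was the most variable member, with an SD of 0.80 in log2 CPM and values of 29.1 to 120 CPM (1143 in replicate 1). Replicates 5, 8 and 9 were the high libraries and replicates 2, 4 and 7 the low ones. The mean correlation between pairs of the 27 genes was 0.779 over the 8 libraries, and 94.0% of the 351 pairs had r above 0.5. For comparison, pairs drawn from all 3642 genes that also averaged 50 CPM or more had a mean r of 0.0184, and 15.8% were above 0.5. The lists were held to the count minimum only. Pairs of all 9745 genes that met it had a mean r of 0.00864, and 13.7% were above 0.5.

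The list of genes that stressed heart muscle turns on was also high in replicates 5, 8 and 9, while its members were less alike, with a mean pairwise r of 0.481 and 63.9% of 36 pairs above 0.5. Nppa, the atrial natriuretic peptide (chromosome 4, 148000722 to 148002079), ran from 2529 CPM in replicate 4 to 5465 CPM in replicate 5 with a median of 3343 CPM, and reached 8446 CPM in replicate 1. Its second highest value was 5267 CPM in replicate 6, which was not among the libraries highest in cardiomyocyte genes. Acta1, the skeletal actin that the ventricle reuses under load, ran from 73.0 CPM in replicate 2 to 407 CPM in replicate 8 (1133 in replicate 1), and Flnc, the muscle filamin and the least abundant of the list, from 85.3 to 121 CPM. The level of the cardiac stress list (mean log2 CPM of 9 genes) rose with that of the cardiomyocyte list over the 8 libraries, with Pearson's r = 0.975 (exact permutation p = 0.000322) and Spearman's rho = 0.976 (exact permutation p = 0.000397), and the Benjamini-Hochberg value over 15 relations was 0.00484. Without replicates 4 and 5, the 2 libraries farthest from the median, r was 0.950, and with replicate 1 it was 0.988. This was the 1 relation of the 15 with a Benjamini-Hochberg value under 0.05 over these 8 libraries. Both lists describe heart muscle, and the part of the amount of muscle in this relation was not tested. Myh6 and Myh7 share 419 bases of 3' sequence at 98.1% identity, so counts of the pair, 1 in each list, are uncertain.

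**Figure D2:**
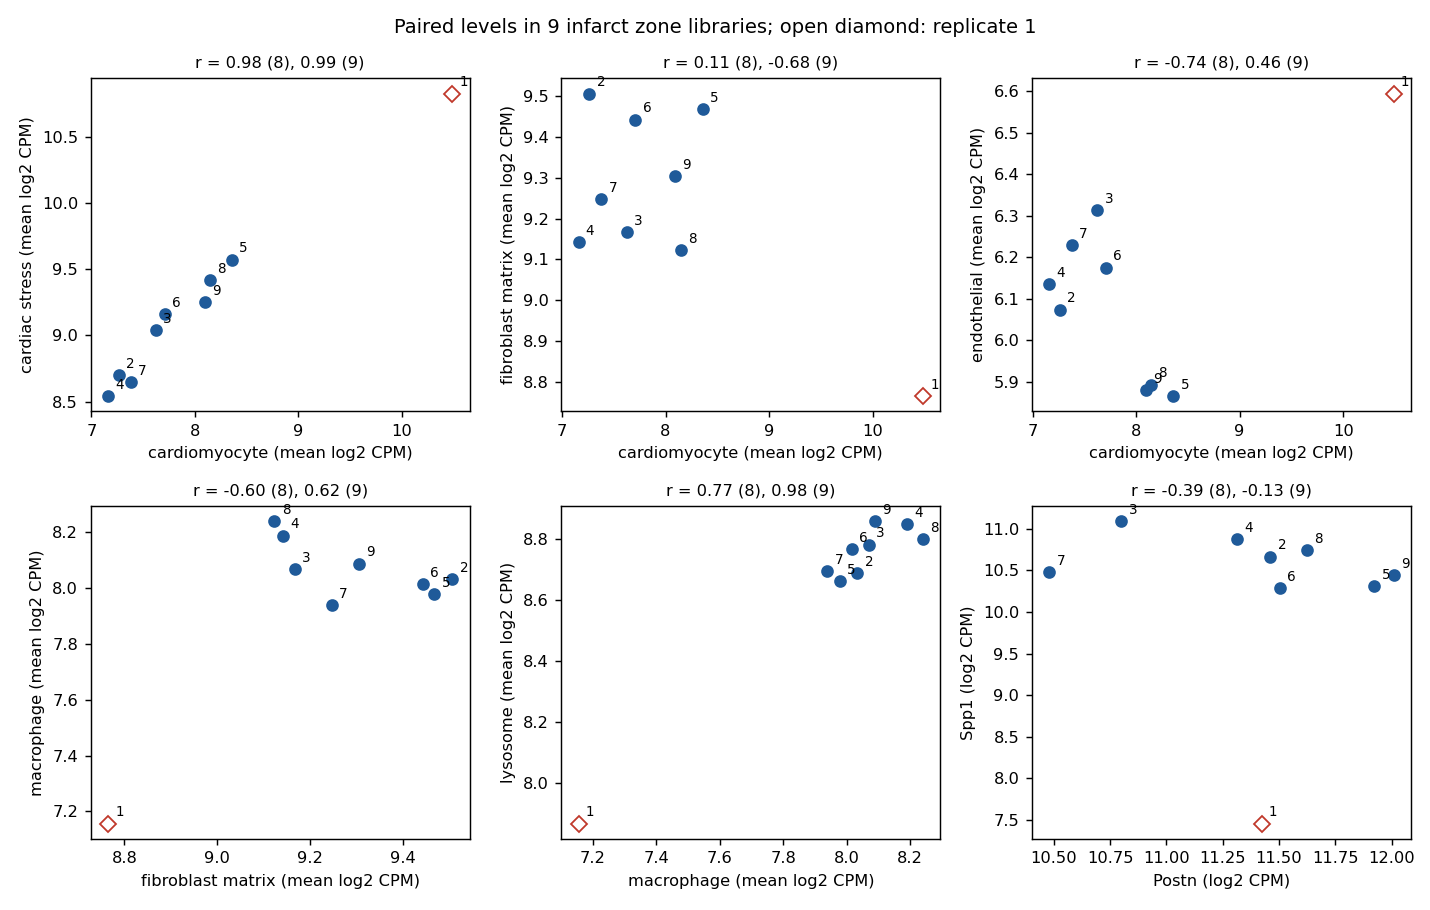
Levels of 6 pairs of gene lists or genes in the 9 infarct zone libraries, as mean log2 CPM of the list or log2 CPM of the gene, with replicate numbers beside the points. Filled circles are replicates 2 to 9, the open diamond replicate 1, and each panel gives Pearson's r over 8 and over 9 libraries. Cardiomyocyte and cardiac stress levels lie along 1 line in both sets, while in the other panels replicate 1 sits far from the rest, and r for cardiomyocyte against endothelial goes from -0.74 to 0.46.

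Oxidative phosphorylation rested on both genomes. The mitochondrially encoded genes varied as a block, with a mean pairwise r of 0.895 over 78 pairs. Their most abundant member, mt-Co1, ran from 5735 to 8652 CPM (35651 in replicate 1), and the most variable one, mt-Atp8, from 13.3 to 56.0 CPM (248 in replicate 1). The 79 nuclear genes of the list that passed, from Atp5b of the ATP synthase (906 ± 123 CPM) down to the complex I subunit Ndufs3 (38.6 ± 4.46 CPM), had a mean pairwise r of 0.557. Their most variable member was Cox7a1, the muscle form of a cytochrome c oxidase subunit, at 53.4 to 176 CPM (853 in replicate 1). Ndufs3 shares 426 bases of 3' sequence at 99.3% identity with Gm12251, whose counts were 92.9% of its own, so its low level is uncertain. Between the cardiomyocyte and mitochondrially encoded levels r was 0.573 over 8 libraries (exact permutation p = 0.142, Benjamini-Hochberg value 0.267), with rho = 0.571, and 0.540 without replicates 4 and 5. With replicate 1 it was 0.935 (exact permutation p = 0.00797, Benjamini-Hochberg value 0.0399), so that relation passed only with that library, where both levels were highest.

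The matrix list was large in amount and even between mice. Col1a1 ran from 6231 CPM in replicate 8 to 10204 CPM in replicate 2 (4849 in replicate 1), and Fap, the fibroblast activation protein and the least abundant member, from 23.5 to 37.8 CPM (16.1 in replicate 1). The level of the list spanned 1.31-fold over the 8 libraries, against 2.28-fold for the cardiomyocyte list. Its mean pairwise r was only 0.266, so the 32 genes did not move as a block. Mfap4, a microfibril-associated protein, was the most variable at 120 to 706 CPM with an SD of 0.77. Replicate 6 was its highest library, as it was for Eln (elastin, 209 to 2107 CPM) and Pi16 (a peptidase inhibitor of vascular fibroblasts, 23.8 to 237 CPM).

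A small set of cartilage-type and late fibroblast genes varied more. Of the matrifibrocyte and cartilage-like list 6 of 10 passed: Cilp (99.7 ± 31.2 CPM), Col11a1 (84.1 ± 33.0 CPM), the transcription factor Sox9 (77.9 ± 16.2 CPM), fibromodulin Fmod (72.1 ± 31.4 CPM), Comp (25.3 ± 14.96 CPM) and aggrecan Acan (14.1 ± 7.41 CPM). Their level spanned 2.31-fold, with replicates 5 and 6 high and replicates 3, 4 and 7 low, and a mean pairwise r of 0.662. Smooth muscle contractile genes (9 of 10 passed), from Acta2 (995 ± 164 CPM) to Myh11 (19.7 ± 12.5 CPM, SD 0.86 in log2 CPM), spanned 1.64-fold. Their level and that of the fibroblast matrix had r = 0.660 (exact permutation p = 0.0828) and rho = 0.595 (exact permutation p = 0.132), and r was 0.292 without replicates 2 and 5.

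Postn and Spp1, the ligands the study followed, differed in spread and in replicate 1. Postn (periostin, ENSMUSG00000027750, chromosome 3, 54361109 to 54391037) ran from 1427 CPM in replicate 7 to 4122 CPM in replicate 9, with a median of 2863 CPM and 2746 CPM in replicate 1. Spp1 (osteopontin, ENSMUSG00000029304, chromosome 5, 104435118 to 104441050) ran from 1250 CPM in replicate 6 to 2177 CPM in replicate 3, with a median of 1525 CPM, and stood at 175 CPM in replicate 1. Replicate 1 thus lay inside the range of the others for Postn and below all of them for Spp1. The correlation of their log2 CPM was r = -0.394 over 8 libraries (exact permutation p = 0.337, Benjamini-Hochberg value 0.561) and rho = -0.524 (exact permutation p = 0.197). It was -0.564 without replicates 3 and 7 and -0.128 with replicate 1.

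The genes most like each ligand differed in kind. Closest to Postn among the 3642 genes were Serpinf1 (pigment epithelium-derived factor, r = 0.977), Rabac1 (0.966) and Ufc1 (0.957). Closest to Spp1 were S100a4 (a calcium-binding protein of migrating cells, r = 0.968), Pf4 (0.963) and Cd47 (0.930). S100a4 ran from 272 CPM in replicate 5 to 465 CPM in replicate 3 and stood at 92.4 CPM in replicate 1, following Spp1 in both sets (r = 0.986 over 9). Such nearest genes were picked as the highest values among 3642 genes over 8 libraries and carry no test. Some of those named here and below fell far or changed sign once replicate 1 was added. The other ligands of the list ran from Nppa, the highest, to Lgals9 (galectin-9, 64.9 ± 22.0 CPM), and the most variable was Angptl4 at 57.2 to 176 CPM.

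Macrophage and lysosome genes were abundant and even in level. Lyz2 ran from 3366 CPM in replicate 7 to 5276 CPM in replicate 8 (1771 in replicate 1), and Cx3cr1, the fractalkine receptor and the lowest of the list, from 40.4 to 73.8 CPM (66.8 in replicate 1). The level of the 23 macrophage genes spanned 1.25-fold and that of the 23 lysosome genes 1.16-fold, while the mean pairwise r within them was low, 0.169 and 0.142. The most variable macrophage gene was Clec4n (dectin-2) at 43.4 to 141 CPM. The lysosome list ran from Ctsd (4423 to 7411 CPM) to alpha-galactosidase Gla (19.8 to 32.5 CPM). The levels of both lists had r = 0.772 over 8 libraries (exact permutation p = 0.0277, Benjamini-Hochberg value 0.197), with rho = 0.857 and 0.833 without replicates 7 and 8, and 0.979 with replicate 1 (exact permutation p = 0.00194, Benjamini-Hochberg value 0.0146). Markers of resident macrophages were fewer, with Mrc1 (98.7 ± 16.1 CPM), F13a1 (78.0 ± 27.8 CPM) and Folr2 (29.8 ± 8.60 CPM) passing out of 8.

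The levels of the neutrophil and monocyte lists spanned wider ranges. S100a8, the neutrophil and monocyte calprotectin subunit, ran from 16.3 CPM in replicate 5 over a median of 31.2 to 130 CPM in replicate 7, with 113 CPM in replicate 3 and 63.6 CPM in replicate 2. Hp (haptoglobin) was at 169, 165 and 108 CPM in replicates 2, 7 and 3 and at 10.1 to 37.9 CPM in the other 5. Csf3r, the receptor of granulocyte colony-stimulating factor, ran from 16.6 to 84.7 CPM. With Hp, the monocyte genes Ccr2 (49.0 to 128 CPM), Plac8 (43.6 to 113 CPM) and Vcan (83.2 to 119 CPM) made up their list. Its level was highest in replicates 2, 3 and 7 and spanned 2.58-fold. Hp had the widest range of the 4 genes, and the level without it was not computed. Replicates 2, 3 and 7 differ in depth (4738307, 4053976 and 1237675 counts). Adipocyte genes were high in the same 3 libraries, at 0.0345%, 0.00728% and 0.0109% of the counts against at most 0.000482% in the other 6. Cfd, the adipocyte complement factor D, stood at 256, 53.3 and 81.6 CPM there and at 3.06 CPM or less elsewhere, and mesothelial Aldh1a2 was highest in replicates 7 (47.6 CPM) and 3 (43.7 CPM). The part of adjoining fat or pericardium in these differences was not tested.

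Of genes passing the count minimum and averaging at least 50 CPM, Ighm was the most variable, with an SD of 1.72 in log2 CPM. It reached 437 CPM in replicate 2 and 167 CPM in replicate 3, against 14.0 to 39.3 CPM in the other 6 and 37.7 CPM in replicate 1. In replicate 2 the B and plasma cell list took 0.108% of the counts, and adipocyte genes and mesothelial genes (0.0293%) were also at their highest there. Msln (mesothelin) was at 63.2 CPM in replicate 2 and 37.3 CPM in replicate 6 and at 3.78 to 13.2 CPM in the other 6, with a lowest count of 5.

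Haemoglobin and erythroid genes had their extremes over replicates 2 to 9 in 2 mice. Their level (mean log2 CPM) was 8.39 in replicate 2, 9.25 to 9.82 in replicates 3 to 8 and 11.1 in replicate 9. Hbb-bs (beta globin) ran from 1676 CPM in replicate 2 over a median of 3708 to 9041 CPM in replicate 9, and Hba-a1, Hba-a2 and Hbb-bt kept that order at both ends. Alas2, the erythroid aminolevulinate synthase that starts haem synthesis, ran from 10.99 to 86.3 CPM. The level of the 5 genes spanned 6.48-fold, with a mean pairwise r of 0.915, and in replicate 1, where Hbb-bs stood at 961 CPM, the level was below all others. Of the genes that store iron and break down haem, ferritin heavy chain Fth1 was even (3026 to 4535 CPM), and so was Blvrb (70.0 to 111 CPM). Hmox1, haem oxygenase, ran from 162 CPM in replicate 5 to 1101 CPM in replicate 7 and stood at 17.1 CPM in replicate 1. Ftl1 (203 to 480 CPM) and the iron exporter Slc40a1 (24.9 to 99.02 CPM) were the other 2 of the 5 that passed out of 8.

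Antigen presentation by class II split the libraries in another way. H2-Aa ran from 142 CPM in replicate 7 to 387 CPM in replicate 2, and its closest genes were H2-Eb1 (r = 0.980) and H2-Ab1 (0.969), the partner chains of the same complex, and Arpc2 of the actin-nucleating Arp2/3 complex (0.967). The invariant chain Cd74 was steadier (285 to 448 CPM), as was H2-DMb1 (40.1 to 71.1 CPM), and H2-DMa was low (15.1 to 40.3 CPM). The list was low in replicates 5 to 8 and high in replicates 2, 3, 4 and 9, and in replicate 1 H2-Aa stood at 498 CPM, above all of them. The level of the list followed the log2 total count of the libraries with r = 0.862, and the part of depth in it was not tested.

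Cell cycle genes were low but coordinated. Pcna (78.4 ± 18.9 CPM) was the highest and Aurkb (11.4 ± 4.07 CPM) the lowest of 38 that passed out of 44, and their mean pairwise r was 0.610, with 73.8% of 703 pairs above 0.5. Top2a, the DNA topoisomerase of dividing cells, ran from 27.2 CPM in replicate 5 to 63.6 CPM in replicate 4 with a median of 41.8 CPM (34.2 in replicate 1). Closest to it were Lcp1 (plastin of blood cells, r = 0.956), Hmgb2 (0.951) and Arl6ip1 (0.949). Kif20a, a mitotic kinesin, was the most variable member at 7.78 to 29.6 CPM. The level was highest in replicates 3 and 4, and it followed log2 total count with r = 0.626. Against the macrophage level r was 0.571 (exact permutation p = 0.142) and against the fibroblast matrix level -0.667 (exact permutation p = 0.0773), and both had Benjamini-Hochberg values over 0.05 (0.267 and 0.248). Their rho was 0.738 and -0.619, and r without the 2 farthest libraries 0.878 and -0.738.

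Interferon-stimulated genes peaked in replicate 4. The 25 that passed ran from Ifi27l2a (378 ± 73.4 CPM) to Cmpk2 (13.9 ± 10.997 CPM), with Ifit1 the most variable (15.6 to 72.7 CPM) and a mean pairwise r of 0.462. Isg15, the ubiquitin-like modifier, ran from 36.0 CPM in replicate 2 to 77.6 CPM in replicate 4 (24.6 in replicate 1). Against the class II level r was -0.0718 (exact permutation p = 0.860) and rho -0.238.

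Promoters of the cell cycle, interferon, fibroblast matrix, ribosomal protein and cardiomyocyte lists were examined for short motifs, among them motifs that mark cell cycle and interferon genes. RefSeq windows (GRCm38.p6, 250 bases before to 50 after the start, 1 start per gene) were found for 32 of the 38 cell cycle genes. Of these, 27 (84.4%) held CCAAT on either strand and 17 (53.1%) held TTTGAA, the core of the cell cycle homology region, while 37.9% and 18.1% of all 27025 promoters did. None of the 32 held TATAAA, against 14.2% of all promoters. Among the 7106 promoters of genes with 10 or more counts in every library, the background of these lists, 37.9% held CCAAT, 10.9% TTTGAA, 7.06% TATAAA and 7.70% TTTCNNTTT. The interferon-stimulated response element core TTTCNNTTT was found in 11 of 19 interferon promoters (57.9%) and in 10.7% of all, and TATAAA in 5 of the 19 (26.3%). For fibroblast matrix genes the counts were 4 of 19 for CCAAT (21.1%) and 4 of 19 for TATAAA (21.1%), and for ribosomal protein genes 19 of 60 for CCAAT (31.7%). Cardiomyocyte genes, which had a higher mean pairwise r (0.779) than the cell cycle and interferon lists, held CCAAT in 9 of 23 promoters (39.1%). Among these 23, TTTGAA was in 2 (8.70%), TATAAA in 4 (17.4%) and TTTCNNTTT in 0. These are matches of letters, and no binding was measured. The 150 bases before the start of 2 cell cycle genes and 1 interferon gene are printed with CCAAT and TTTGAA (Top2a and Cdk1) or TTTCNNTTT (Isg15) in capitals on either strand, so that ATTGG and TTCAAA are the reverse complements. Top2a lies at chr11:99024190-99024339, Cdk1 at chr10:69352913-69353062 and Isg15 at chr4:156200819-156200968, all on the minus strand. Cdk1 was chosen for display after its motifs were seen.
Top2a: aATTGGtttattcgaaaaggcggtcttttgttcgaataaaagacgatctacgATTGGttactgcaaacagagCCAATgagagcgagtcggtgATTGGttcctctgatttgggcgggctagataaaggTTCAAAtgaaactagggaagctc
Cdk1: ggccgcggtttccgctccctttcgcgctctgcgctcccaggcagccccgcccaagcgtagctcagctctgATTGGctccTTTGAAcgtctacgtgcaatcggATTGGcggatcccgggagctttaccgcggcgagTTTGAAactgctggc
Isg15: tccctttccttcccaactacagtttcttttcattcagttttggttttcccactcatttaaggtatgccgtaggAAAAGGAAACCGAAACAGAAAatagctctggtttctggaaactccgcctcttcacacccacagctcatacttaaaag
In these windows Top2a held 4 matches of CCAAT and 1 of TTTGAA, Cdk1 2 of each, and Isg15 3 overlapping matches of TTTCNNTTT.

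Housekeeping and secretory genes were the even background of the tissue. The 80 ribosomal protein genes, from Rplp1 (2773 ± 361 CPM) to Rps13 (81.0 ± 13.6 CPM), spanned 1.15-fold in level, with Rps2 the most variable (80.7 to 174 CPM). ER secretion genes, from the chaperone Calr (961 ± 116 CPM) to Creld2 (35.0 ± 9.57 CPM), spanned 1.21-fold, with Sdf2l1 the most variable (13.6 to 56.4 CPM). Their level had r = 0.0226 with that of the fibroblast matrix (exact permutation p = 0.956) and rho = 0.0238. Actin and cytoskeleton genes ran from Actb (10093 ± 970 CPM) to Coro1a (166 ± 22.5 CPM), with S100a11 the most variable (224 to 496 CPM) and a span of 1.24-fold. Glycolysis and hypoxia genes, from Aldoa (596 ± 86.6 CPM) to the oxygen sensor Egln3 (14.3 ± 6.02 CPM), spanned 1.34-fold. Growth and fibrosis signals ran from Ccn2 (1340 ± 426 CPM) to Gdf15 (23.3 ± 5.56 CPM), with the activin subunit Inhba the most variable (20.4 to 62.7 CPM).

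Across all 9745 genes the median SD of log2 CPM was 0.28 over 8 libraries and 0.32 over 9. The edgeR common biological coefficient of variation was 17.7% without replicate 1 and 24.7% with it. Counting noise accounted for a median of 35.6% of a gene's variance, and 20.7% for genes of at least 50 CPM. Among the latter, the steadiest genes included Gm10275, Gm8960, Nisch, Rps19-ps6, Ubn1, Gm9385, Psmd8, Rps24 and Brd2, each with an SD of 0.04 to 0.05. Nisch (imidazoline receptor binding protein, 197 to 221 CPM) and Ubn1 (a histone chaperone subunit, 48.2 to 53.6 CPM) also held their level in replicate 1, at 223 and 49.7 CPM. The steadiest genes were picked as the smallest SDs among 3642 genes, and Nisch and Ubn1 had lowest counts of 276 and 62. The part of sampling in such small SDs was not tested. At the other end stood Ighm, Hp, S100a8, Egr1, Pi16, Eln, Fos, Gm10837, Ccl2 and Hmox1, with SDs of 1.72 to 0.86. Ccl2, a monocyte chemoattractant, ran from 16.3 CPM in replicate 5 to 129 CPM in replicate 3.

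**Figure D3:**
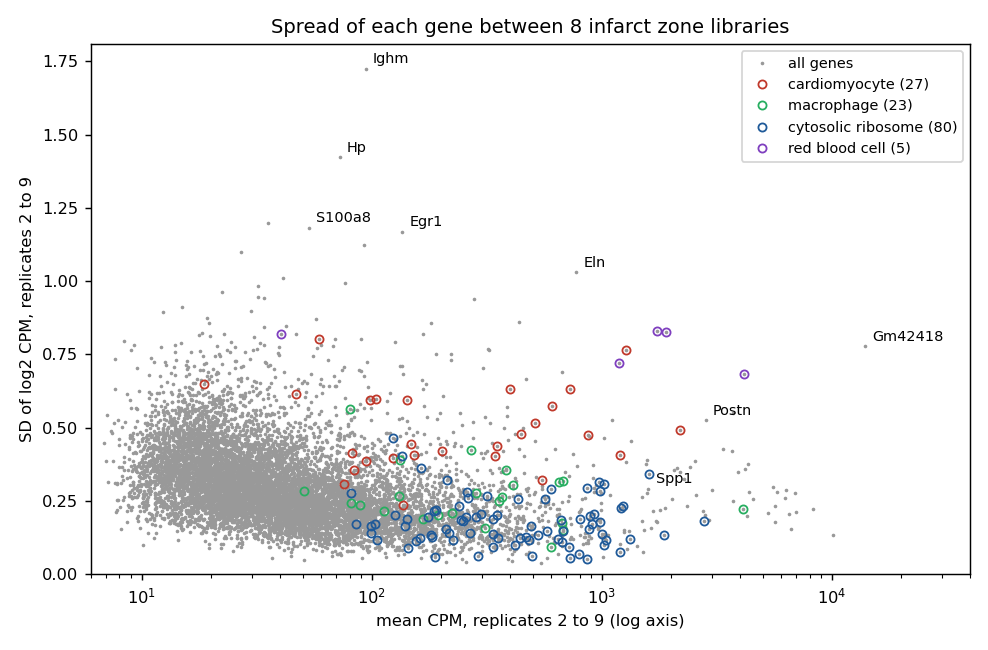
SD of log2 CPM over replicates 2 to 9 against mean CPM (log axis) for the 9745 genes with 10 or more counts in every infarct zone library (grey), with 4 lists in colour. Cardiomyocyte and red blood cell genes lie above most genes of the same level, ribosomal protein and macrophage genes among the low ones, and Ighm, Hp, S100a8 and Egr1 at the top.

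Immediate early genes were higher in replicates 4 to 7. Egr1, a transcription factor induced within minutes of a stimulus, was at 184 to 242 CPM in replicates 4, 5, 6 and 7. It was at 35.6 to 71.1 CPM in replicates 2, 3, 8 and 9, and at 334 CPM in replicate 1. These sets of libraries were read from the same values. Fos ran from 19.8 CPM in replicate 2 to 135 CPM in replicate 6 with the same libraries high (92.5 to 135 CPM against 19.8 to 45.3 CPM). The list ran from Ccn1 (467 ± 217 CPM) to Klf4 (23.4 ± 6.44 CPM), with a mean pairwise r of only 0.206 and 30.0% of 120 pairs above 0.5. Of clock genes, Tef (92.7 ± 30.3 CPM) was the highest and Nr1d1 (21.02 ± 8.87 CPM) the lowest and most variable. Dbp, a clock output factor, ran from 35.5 CPM in replicate 3 to 94.9 CPM in replicate 5, and its closest genes were Rnf187 (r = 0.987), Ttn (0.938) and Use1 (0.934). Glucocorticoid and metallothionein genes were led by Mt1 (276 ± 84.2 CPM), with Pdk4 the lowest (19.5 ± 3.73 CPM, 116 in replicate 1) and Tsc22d3 the most variable (69.3 to 384 CPM). Fkbp5, a glucocorticoid target, ran from 40.4 to 137 CPM, with Gm13611 (r = 0.921), Jam2 (0.913) and Sh3glb1 (0.910) closest.

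**Figure D4:**
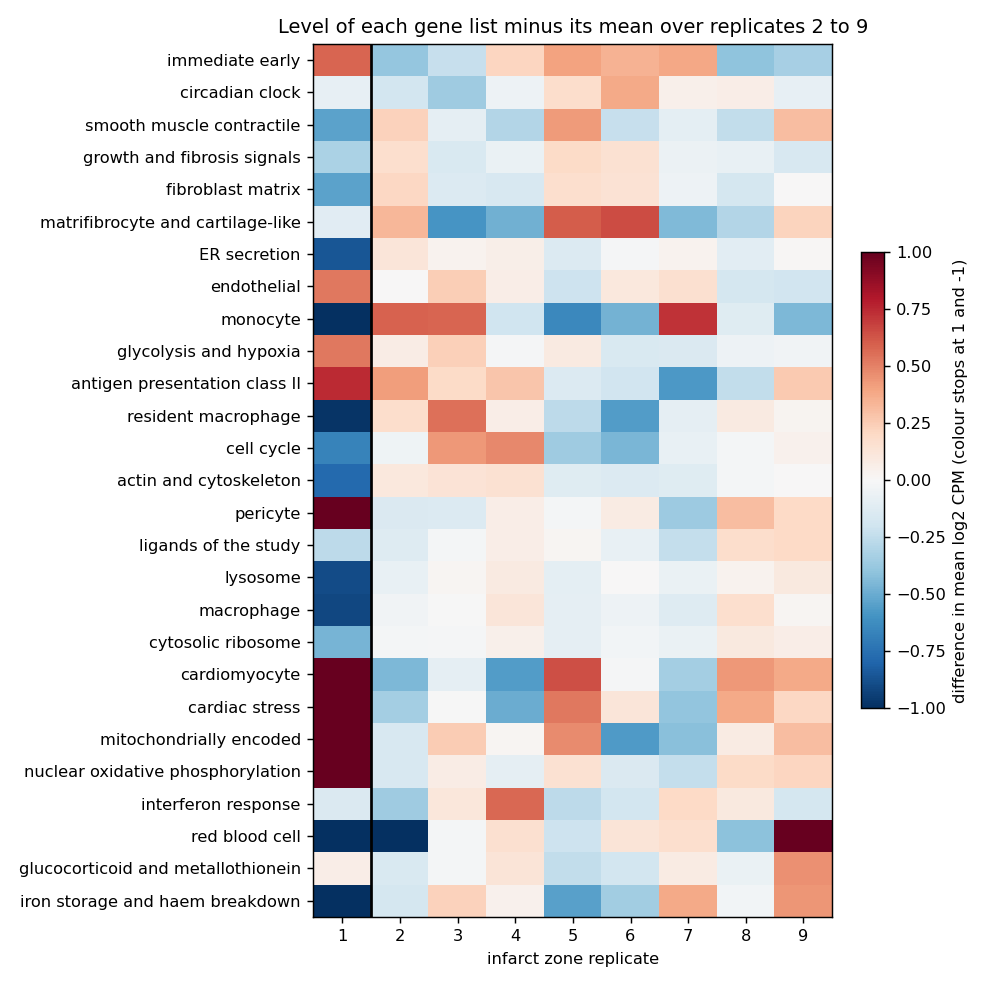
Level of each gene list with at least 3 measured genes in each infarct zone library, as the difference in mean log2 CPM from the mean of replicates 2 to 9 (red higher, blue lower, colours stopping at 1 and -1). Replicate 1, left of the line, is strongly coloured in most lists. In the other columns the monocyte list is high in replicates 2, 3 and 7, cardiomyocyte and cardiac stress in 5, 8 and 9, immediate early in 4 to 7 and red blood cell in 9.

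Which genes vary together was then read from the 500 most variable genes of at least 50 CPM. With replicate 1 included, 1 component held 70.1% of the variance and placed replicate 1 at 33.1, against -11.2 to 2.77 for the others. Its ends were Ckm, Cox6a2, Myl3, Myh7 and Cox8b, all muscle genes, and Hmox1, Msr1, Hp, Spp1 and S100a8. Without replicate 1, the first and second components held 35.6% and 28.8%.

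The first component set replicates 6 and 7 (scores of 9.34 and 8.29) against replicates 3, 4 and 9 (-7.71, -6.76 and -4.55). At its high end were Pi16, Gm10837, St6galnac3, Gtpbp4-ps3 and Gm43960, and at its low end Ighm, Pf4, Gm6139, H2-Eb1 and Lyz1. Its scores followed log2 total count with r = -0.743, and thinning every library to the smallest total gave the same order (r = 0.996 between the scores). They also followed the share of counts on features annotated as TEC (unprocessed transcripts to be experimentally verified), with r = 0.857, which was 0.159% to 0.297% of the counts and highest in replicates 7 and 6. The part of depth and of this share in the component was not tested.

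The second component ran from replicate 5 (-7.95) and replicate 9 (-5.63) to replicate 3 (5.23) and replicate 7 (9.99). At its high end were Hp, S100a8, Ighm, Hmox1 and Timp1, the inhibitor of matrix proteases (374 to 1446 CPM). At its low end were Adamtsl2, Eln, Fmod, Thbs4 and Islr, genes of fibroblast matrix. Its scores had r = 0.913 with the level of the monocyte list and -0.765 with that of the cardiomyocyte list. Both lists have genes among the 500 that made the component, and Hp at its high end is also a gene of the monocyte level. These r values and the counts of loadings that follow are therefore partly built in and carry no test. By list, 3 of 3 monocyte genes among the 500 had a positive loading and 0 of 22 cardiomyocyte genes did. Of the fibroblast matrix genes 4 of 8 were positive, and the level of that list had r = -0.344 with the scores. The libraries high on this component, replicates 7, 3 and 2, were those with the adipocyte genes.

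Grouping the 500 genes by their correlation gave 8 groups, of which 4 held 468 genes. Group 3, of 111 genes, held 21 of the 22 cardiomyocyte genes and 7 of the 8 cardiac stress genes among the 500, together with the fibroblast genes Postn, Cilp, Fmod, Thbs2 and Tgfb3 and the ligands Mdk and Ptn. Nearest its centre were Ldb3 (a Z-disc protein, r = 0.98), asporin Aspn (0.94), Rasl11b (0.93), cystatin C Cst3 (0.93) and osteoglycin Ogn (0.93). It was high in replicates 5, 8, 9 and 6 and low in 7, 3, 4 and 2, and replicate 1 stood 1.35 above their mean in log2 CPM. Only 2 of the 8 fibroblast matrix genes among the 500 were in this group (Postn and Thbs2), while Lox, Mfap4 and Thbs1 were in group 2, Tgfbi and Timp1 in group 4 and Col6a2 in group 1. The level of the full fibroblast matrix list had r = 0.107 with the cardiomyocyte list (exact permutation p = 0.794), with rho = 0.0714 and -0.499 without replicates 4 and 5. Closest to Nppa were Serpine2 (r = 0.952), Frzb (0.944) and Itgbl1 (0.936), with 0.491, 0.407 and 0.769 over 9 libraries. In replicate 1 these genes stayed inside or near the range of the others (Frzb 57.3 CPM against 57.5 to 170). Closest to Myh6 were Mb (0.975), Chchd10 (0.972) and Mybpc3 (0.968), which in replicate 1 rose with it (Mb 9214 CPM against 562 to 2186).

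Group 4 had 88 genes. Nearest its centre by name were Srgn (serglycin of leukocyte granules, r = 0.97), Gda (0.96), Tubb6 (0.94) and the chemokine Ccl9 (0.92). It held the monocyte genes Ccr2, Hp and Plac8, S100a8, Ighm, Timp1, Tgfbi and Hmox1, the cell cycle genes Hmgb2, Pcna and Ube2c and the interferon genes Irf7 and Isg15. It was high in replicates 3 (0.46) and 7 (0.39) and low in replicates 5 (-0.48) and 6 (-0.36). S100a8 had Otulinl (r = 0.959), Papola (0.946) and Cdc42se2 (0.930) as closest genes.

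Groups 1 and 2 were opposite in replicates 6 and 7. Group 1, of 156 genes, was nearest to Lyz1 (r = 0.98), the small nuclear ribonucleoprotein Snrpg (0.98), Gm6139 (0.97), Akt1 (0.97) and Dad1 (0.97), and held H2-Aa, H2-Ab1 and H2-Eb1, 6 mitochondrially encoded genes and 28 pseudogenes. Its centre stood at -0.59 in replicate 7. Group 2, of 113 genes, had near its centre Agpat1 (r = 0.97), Gm43960 (0.97), Gm19087 (0.97) and Mrpl23-ps1 (0.97) and held 8 of the 10 immediate early genes among the 500. Its centre stood at 0.57 in replicate 7. The longest annotated transcript of a gene had a median of 1769 bases in group 1 and 2938.5 bases in group 2, against 2821 bases over the 3642 genes, and 32.7%, 8.93% and 17.3% were shorter than 1000 bases. Lyz1 shares 501 bases with Lyz2 at 97.0% identity and had 1.69% of its counts, so its level is uncertain.

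**Figure D5:**
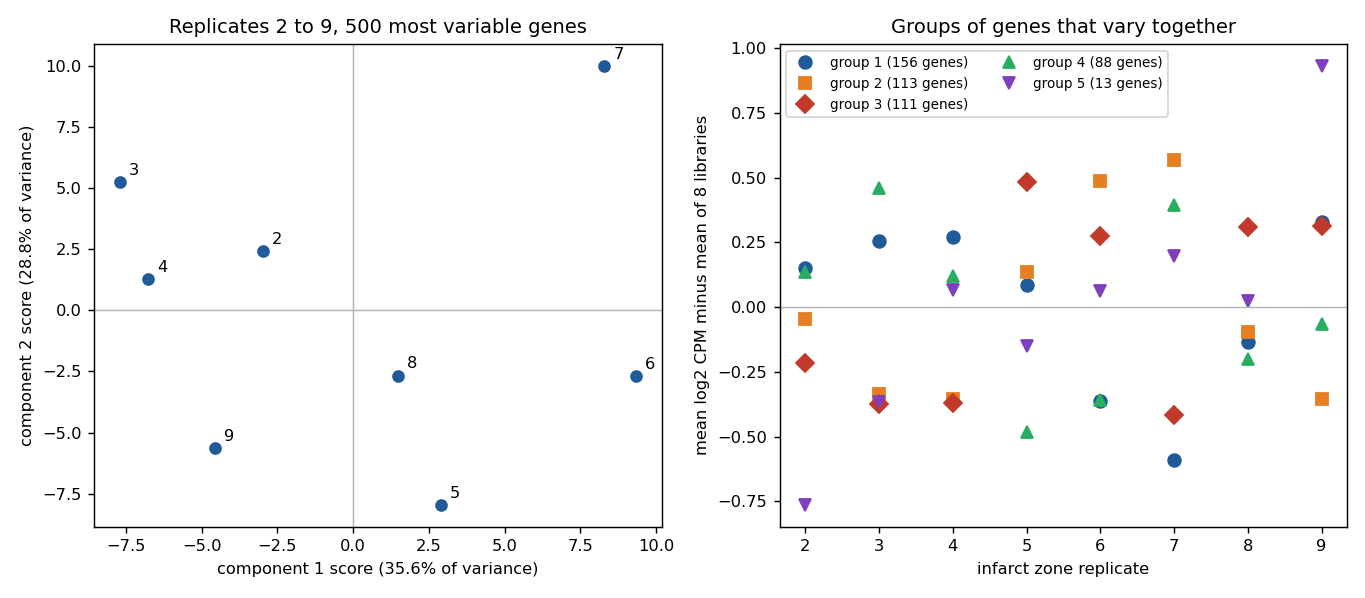
Left, scores of replicates 2 to 9 on the first and second components of the 500 most variable genes, with replicate numbers. Right, mean log2 CPM of the 5 largest groups of genes in each library, centred on the 8 libraries. Replicates 6 and 7 lie at the right of the first component, where group 2 is high (0.49 and 0.57) and group 1 low (-0.36 and -0.59). Group 3 and group 4 run against each other in replicates 3, 5, 6 and 7, and group 5 peaks in replicate 9 (0.93).

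The smaller groups were specific in content. Group 5 held 13 genes, with the 4 haemoglobins, Sprr2a1 and Sprr2a2 (small proline-rich proteins with identical 3' ends), Tsc22d3 and Per1, highest in replicate 9 and lowest in replicate 2. Closest to Hbb-bs were Hbb-bt (r = 0.998), Krtcap2 (0.977) and Hba-a2 (0.917). Group 6 (9 genes, centred on Dctn5, St3gal4, Pfdn6, Diaph1 and Zswim8) was low in replicate 5. Group 7 (8 genes) held mt-Rnr1, mt-Rnr2, Nxn, Mrps14 and Gm42418 and was low in replicate 6, and group 8 held Mmp12 (macrophage elastase, 67.6 to 154 CPM) and Slc43a3.

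Vessel genes were low in amount. The 17 endothelial genes that passed ran from Tm4sf1 (279 ± 55.6 CPM) to Cldn5 (20.3 ± 6.64 CPM), with the angiopoietin receptor Tek the most variable (12.1 to 33.4 CPM). Their level was 5.87 to 5.89 in replicates 5, 8 and 9, the libraries with the highest cardiomyocyte level, and 6.07 to 6.31 in the other 5. Against the cardiomyocyte level r was -0.745 (exact permutation p = 0.0393, Benjamini-Hochberg value 0.197) and rho -0.595 (exact permutation p = 0.132). It was -0.698 without replicates 4 and 5 and 0.464 with replicate 1, which was high in both. Pecam1, an adhesion molecule of endothelium and platelets, ran from 148 CPM in replicate 9 to 292 CPM in replicate 7, and Stab1 (r = 0.962), Sertad1 (0.955) and Arpc1a (0.940) were closest. Pericyte genes ran from Rgs5 (172 ± 46.8 CPM, 373 in replicate 1) to Vtn (7.92 ± 1.52 CPM, 41.2 in replicate 1). Of lymphatic genes Pdpn (76.3 ± 9.22 CPM) and Flt4 (16.3 ± 7.53 CPM) passed. Closest to Acta2 were Ubp1 (r = 0.951), Cnn1 (0.948) and Slc44a2 (0.931). Of these Cnn1, the smooth muscle calponin, also held over 9 libraries (0.847), while Ubp1 fell to 0.253 and Slc44a2 turned to -0.337. Closest to Lyz2 were Os9 (0.985), Rpl23a-ps3 (0.967) and Atp6v0b (0.965), with 0.642, 0.967 and 0.579 over 9 libraries. Closest to Isg15 were Actb (0.932), Pkig (0.898) and Matr3 (0.897), with 0.896, -0.292 and 0.852 over 9. Closest to Msln were Fkbp9 (0.949), Rnase4 (0.922) and Emp1 (0.903), with 0.951, 0.830 and 0.923 over 9. Msln itself averaged 19.2 CPM over the 8 libraries. Its lowest count of 5 was under the count minimum, so these values are imprecise.

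The remaining relations gave no Benjamini-Hochberg value under 0.05 over the 8 libraries. Cardiomyocyte and macrophage levels had r = 0.0521 (exact permutation p = 0.901), fibroblast matrix and macrophage levels -0.604 (exact permutation p = 0.119), macrophage and neutrophil levels -0.338 (exact permutation p = 0.412) and class II and T and NK cell levels 0.346 (exact permutation p = 0.401). Their rho values were -0.0238, -0.643, -0.214 and 0.190. Without the 2 farthest libraries r was 0.756, -0.617, 0.0512 and 0.0924, so cardiomyocyte with macrophage and macrophage with neutrophil depended on those libraries. The neutrophil level rested on 2 genes and the T and NK cell level on 1. With 8 libraries the exact test could reach 2.48e-05.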

How the data were processed

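Infarct zone tissue of 9 mice, 1 library each, had been sequenced by MACE, in which fragmented RNA is captured at its 3' end with barcoded oligo(dT) primers that carry unique molecular identifiers. The authors deposited raw counts per gene in 1 table of the whole series, with Bowtie2, HTSeq and mm10 named in the submitters' processing notes. The annotation release and the treatment of reads with several locations were not given in the sources used here. Every column was assigned to a sample (0 columns were left out), and the 8 sham columns were not analysed here.

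Counts were scaled by TMM in edgeR 4.0.16 (R 4.3.3) and turned into log2 CPM with a prior count of 1. Genes with 10 or more counts in every library were kept. Components, groups and the genes compared with each anchor used those that also had a mean of at least 50 CPM. Correlations within and between lists used the count minimum only, and no minimum was set for the anchors themselves. Genes were named by rule: the 20 most abundant features, the 10 genes with the largest and the 10 with the smallest SD, the 5 at each end of the first and second components, the 5 nearest each group centre, the 3 most like each of 15 anchor genes, the highest, lowest and most variable member of each list (all members of lists with at most 6), and Postn and Spp1. Genes named by hand outside it were examples of their list and were chosen after their values were seen. The gene lists, anchors and 15 relations were chosen with earlier results of these data known. For each relation a two-sided exact permutation test over all pairings was run (Python 3.11.15, scipy 1.17.1), with Benjamini-Hochberg adjustment over the 15, and replicates were separate mice. Sequence copies were found with BLAST 2.17.0. Means ± SD are over n = 8 libraries unless said otherwise, and share values carry counting error in addition. Total counts were 1237675 to 4738307 per library, so a gene at the minimum of 10 counts is imprecise. On simulated counts of 9840 genes, 99.5% of 200 genes that shared a pattern were among the 500 most variable. Alternatives were scaling by total counts or by DESeq2 1.42.0 size factors, another prior count, thinning, medians over members, and leaving out each replicate. A few genes that the rule would name are not reported here.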

Additional observations from a re-analysis of the deposited data

Results flagged for a closer look

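Each of 36 library measures, list levels and genes was examined for a library far from the other 8, by the gap to its nearest neighbour as a share of the whole range, against a critical value of 0.493. Chance alone gives about 1 such library in 20 groups, and the measures are not independent, since 15 of the 16 found concern replicate 1.

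In replicate 1 the gap was 0.736 of the range for the number of genes that make up 50% of the counts (178), 0.820 for the share of the 10 most abundant genes (20.6%), 0.832 for the share of the mitochondrial genome (19.5%) and 0.800 for that of processed pseudogenes (5.01%). It was above the others in the levels of cardiomyocyte (gap 0.640), cardiac stress (0.549), mitochondrially encoded (0.675), pericyte (0.508) and nuclear oxidative phosphorylation genes (0.720). It was below them in macrophage (0.722), ER secretion (0.735), lysosome (0.801), cytosolic ribosome (0.661) and actin and cytoskeleton genes (0.691), and in log2 CPM of Spp1 (0.780). Muscle, mitochondrial and pericyte genes were thus high and phagocyte and secretory genes low in the same library.

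Replicate 4 stood apart in the share of Gm42418 (gap 0.519), at 3.28% against 0.600% to 1.89% in the other 8 libraries.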

How the results depend on the processing

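No paired analysis was possible because only 1 group was analysed. Of the alternative values, 343 were labelled the same, 20 reversed, 4 newly passed and 2 moved. For relations, the same meant an unchanged sign and side of the threshold. Shares of counts and measures of spread have neither. For shares the label meant a shift of the mean below the SD of the libraries, and for spread a ratio within set limits. Leaving out 1 of 9 libraries cannot shift a mean by its SD, so those settings could not fail for the shares. The cardiomyocyte and cardiac stress relation kept its sign and side of the threshold in its 16 settings, with r of 0.90 to 0.99 and Benjamini-Hochberg values of 8.27e-05 to 0.0420 by exact permutation.

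With all 9 libraries the sign turned for cardiomyocyte with fibroblast matrix (-0.678), macrophage (-0.864) and endothelial (0.464), for fibroblast matrix with macrophage (0.617) and cell cycle (0.0811), and for macrophage with neutrophil (0.477). With replicate 1, relations passed for cardiomyocyte with mitochondrially encoded (0.935), fibroblast matrix with smooth muscle (0.774), and macrophage with cell cycle (0.681) and lysosome (0.979). The share of the first component became 70.1% and the common dispersion 0.0609.

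Scaling by total counts turned cardiomyocyte and macrophage to -0.196. Fibroblast matrix and ER secretion was -0.0576 with DESeq2 size factors and -0.0426 thinned, and fibroblast matrix and smooth muscle -0.340 with medians over members. Leaving out 1 replicate moved r from -0.185 to 0.458 for cardiomyocyte and fibroblast matrix, -0.286 to 0.349 for cardiomyocyte and macrophage, -0.479 to 0.443 for fibroblast matrix and ER secretion, -0.580 to 0.125 for macrophage and neutrophil, -0.113 to 0.510 for class II and T and NK cell, and -0.552 to 0.198 for interferon and class II. The causes were not tested. Counting noise made up a median of 35.6% of the variance of a gene, and depth limits genes near 10 counts most.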
